A study of Mus musculus with 16 samples.

Results

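Primary (azurophil) granules are the first granules that a neutrophil precursor makes. Their proteins are transcribed in granulocyte-monocyte progenitors and promyelocytes, and transcription stops as the cells mature, while the stored proteins persist in the ripe neutrophil. Transcripts of these genes therefore mark immature myeloid cells, and they are read here in the myeloid-derived suppressor cells (MDSCs) of tumor-bearing spleens, which hold both monocyte-like and granulocyte-like immature cells.

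The set consisted of 6 genes named for this function, out of 24421 gene symbols in the count tables. They were Mpo (myeloperoxidase, which makes hypochlorous acid), the serine proteases Elane (neutrophil elastase), Prtn3 (proteinase 3), Ctsg (cathepsin G) and Prss57 (neutrophil serine protease 4), and Ms4a3, a membrane protein of granulocyte-monocyte progenitors whose promoter is used to trace their progeny. All 6 had a row in the tables.

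The libraries came from spleens of C57BL/6 mice that carried subcutaneous B16.F10 melanoma, a mouse tumor cell line that has its own intact Nlrp3. WT mice were compared with Nlrp3-/- mice, whose gene was disrupted in every host cell by an EGFP cassette at the start codon. From each of 4 WT and 4 Nlrp3-/- mice, young and matched for age and sex per the study's methods, 2 populations were sorted. M-MDSCs were CD11b high Ly6C+Ly6G- and G-MDSCs were CD11b high Ly6C-Ly6G+, which gave 16 libraries in 4 groups of 4. No tumor-free mouse was sequenced, so tumor bearing is shared by all groups. The study's methods give a day of analysis after tumor induction in general terms only, and neither the day of the sort nor the number of amplification cycles is given per sample.

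Libraries held 2295967 to 6079866 counts, so that 3 counts, the most that a count of 0 allows, corresponded to 0.349 to 1.17 CPM (counts scaled to a common library size, with TMM factors over all 16 libraries). Nlrp3 itself had 219 to 632 counts in WT and 4 to 11 in Nlrp3-/- M-MDSCs, and 744 to 1365 against 21 to 59 in G-MDSCs. The sorts matched their labels: summed CPM of 9 neutrophil marker genes was 126539 to 196140 in G-MDSCs and 1449 to 7076 in M-MDSCs, and that of 10 monocyte markers was 933 to 2404 against 8451 to 16379. Ly6g, the gene behind the G-MDSC gate, had no row in the tables. WT M-MDSC replicate 2 was the highest library of its group for all 6 genes, and the genotype values of the 6 genes in M-MDSCs are given with and without it.

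In the mouse genome (mm10) 3 of the 6 genes lie within 106742 bases of chromosome 10. Prss57 is at chr10:79781474-79790961 on the minus strand, Prtn3 at chr10:79874476-79883174 and Elane at chr10:79886247-79888215, both on the plus strand and 3072 bases apart. Mpo is at chr11:87793581-87804413 (plus), Ctsg at chr14:56099881-56102574 (minus) and Ms4a3 at chr19:11629496-11640851 (minus). The 3′ end of Prss57 overlaps that of Fstl3, a follistatin-like gene on the opposite strand. Counting was by strand.

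Promoter sequences (RefSeq, GRCm38.p6, from 250 bases before to 50 bases after the start site) were at hand for 5 of the 6 genes, all but Prss57. The letters GAGGAA, the core bound by Ets factors such as PU.1 (Spi1), were searched on both strands and occurred in all 5 promoters, against 28.28% of 32851 mouse promoters. The 4 stretches of 150 bases below, 5′ to 3′ in the direction of transcription, are shown because they hold these matches in the 4 genes that were higher in M-MDSCs. GAGGAA is in capitals. Start sites here are those of RefSeq, while the gene positions above are from GENCODE. For Elane, Prtn3 and Mpo the RefSeq start site lies inside the GENCODE span. All of the Prtn3 stretch and parts of the Elane and Mpo stretches therefore lie inside those spans. The first pair are the neighbours on chromosome 10, from 150 bases before the start site to the base before it (chr10:79886162-79886311 and chr10:79879517-79879666, plus strand), and the other pair are 150 bases that start 250 bases before it (chr11:87793534-87793683, plus strand, and chr14:56102675-56102824, minus strand).
Elane: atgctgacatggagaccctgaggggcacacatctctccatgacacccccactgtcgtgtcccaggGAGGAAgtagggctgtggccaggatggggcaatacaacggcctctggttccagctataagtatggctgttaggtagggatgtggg
Prtn3: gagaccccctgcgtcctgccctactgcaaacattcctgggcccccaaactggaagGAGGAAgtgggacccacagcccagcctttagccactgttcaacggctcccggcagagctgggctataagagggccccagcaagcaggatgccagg
Mpo: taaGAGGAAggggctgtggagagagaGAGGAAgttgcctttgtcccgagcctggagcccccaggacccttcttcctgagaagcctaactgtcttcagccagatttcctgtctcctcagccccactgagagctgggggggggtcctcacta
Ctsg: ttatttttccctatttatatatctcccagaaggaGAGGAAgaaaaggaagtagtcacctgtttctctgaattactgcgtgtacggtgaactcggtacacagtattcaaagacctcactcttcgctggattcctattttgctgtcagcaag

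The match began 85 bases before the start site in Elane, 95 in Prtn3 and 216 in Ctsg, and at 247 and 224 bases before it in Mpo. In Ms4a3 it lay 36 bases after the start site. Other motifs were looked for in the same 5 promoters. A C/EBP core (TTNNGNAA, both strands, present in 40.68% of promoters) was found in Ms4a3 alone, and a Myb core (AACNG, both strands, 80.29% of promoters) in the other 4. A Runx core (TGTGGT, both strands, 16.76%) was found in Ctsg alone, and so was TATAAA (both strands, 13.62%). That TATAAA match lay 237 bases before the start site, on the strand opposite to transcription. Near matches to these letters were not searched. These are letter matches in one window and not measured binding.

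Levels in the 2 sorted populations were compared first. Mpo, Elane, Prtn3 and Ctsg were higher in the Ly6C+ M-MDSC libraries and were close to the detection limit in Ly6G+ G-MDSCs, in both genotypes. Prss57 showed the opposite order. Ms4a3 did not pass the test in either genotype. In these bulk samples fewer cells that carry a transcript and less transcript per cell cannot be told apart. The part of other cells within each sort was not tested.

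**Figure D1:**
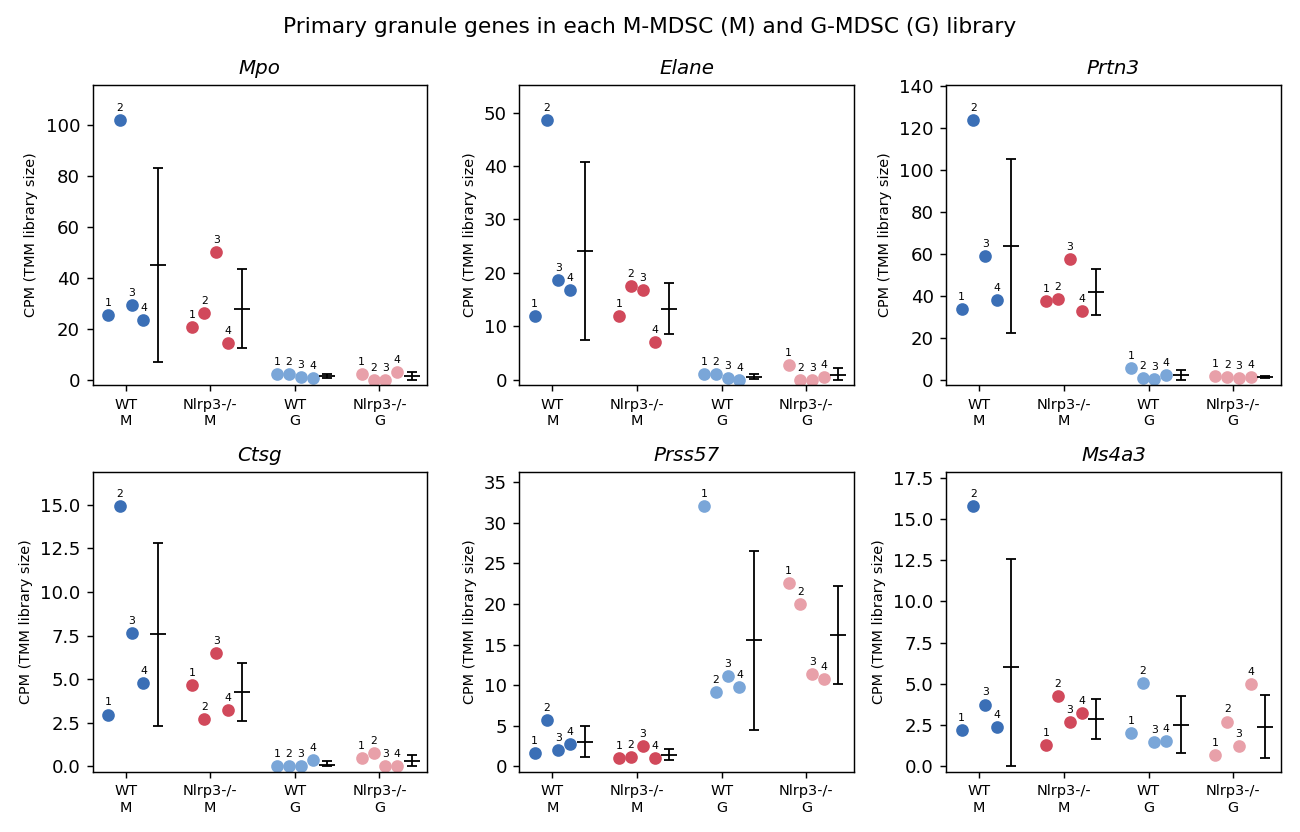
CPM of each primary granule gene (TMM library size, linear axis, own scale per gene) in the 16 libraries, numbered by replicate, with the mean and SD of each group beside its points (the lower bar is drawn no further than 0). For Mpo, Elane, Prtn3 and Ctsg every M-MDSC library lies above every G-MDSC library, for Prss57 every G-MDSC library lies above every M-MDSC library, and WT M-MDSC replicate 2 is the highest of its group in all 6 panels.

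Mpo, the peroxidase, was at 25.3, 102, 29.4 and 23.3 CPM in WT M-MDSC replicates 1 to 4, and at 20.7, 26.3, 50.1 and 14.5 CPM in those of Nlrp3-/- mice. In G-MDSCs it gave 7, 6, 4 and 2 counts in WT and 9, 0, 0 and 12 counts in Nlrp3-/- libraries. The lowest M-MDSC library was thus above the highest G-MDSC library (3.15 CPM), and 2 G-MDSC libraries held no read at all, which allows up to 0.741 and 0.622 CPM. The G-MDSC level was lower by a log2 fold change of -4.88 (SE 0.61) in WT and -4.54 (SE 0.72) in Nlrp3-/- mice, with adjusted p of 3.27e-05 and 0.000112 (edgeR quasi-likelihood test, Benjamini-Hochberg adjustment).

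Elane, the elastase whose mutation causes congenital and cyclic neutropenia in humans, was at 11.9, 48.7, 18.7 and 16.8 CPM in WT M-MDSCs and at 11.9, 17.6, 16.7 and 7.07 CPM in Nlrp3-/- M-MDSCs. WT G-MDSCs gave 3, 3, 1 and 0 counts, and Nlrp3-/- G-MDSCs gave 12, 0, 0 and 2. The populations did not overlap, although replicate 1 of the Nlrp3-/- G-MDSCs held 12 of the 14 counts of its group. The log2 fold change of G-MDSCs over M-MDSCs was -5.37 (SE 0.67, adjusted p = 3.03e-05) in WT and -4.07 (SE 0.78, adjusted p = 0.000567) in Nlrp3-/- mice, and without that replicate the latter was -6.26.

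Prtn3, the neighbour of Elane on chromosome 10 and the autoantigen of some vasculitides, was at 33.8, 124, 58.9 and 38.03 CPM in WT and at 37.6, 38.4, 57.6 and 32.9 CPM in Nlrp3-/- M-MDSCs. In G-MDSCs it gave 17, 2, 2 and 6 counts in WT and 7, 5, 3 and 4 counts in Nlrp3-/- libraries, so that it alone of the 4 was counted at least once in all 16 libraries. The Nlrp3-/- M-MDSC libraries spanned 32.9 to 57.6 CPM and the WT libraries other than replicate 2 spanned 33.8 to 58.9 CPM. The log2 fold change of G-MDSCs over M-MDSCs was -4.85 (SE 0.63, adjusted p = 4.26e-05) in WT and -5.29 (SE 0.34, adjusted p = 1.70e-08) in Nlrp3-/- mice.

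Ctsg, a chymotrypsin-like protease that lies among granzyme and mast cell protease genes on chromosome 14, was at 2.97, 14.9, 7.67 and 4.80 CPM in WT and 4.65, 2.73, 6.47 and 3.21 CPM in Nlrp3-/- M-MDSCs. In G-MDSCs only 1 read was counted over the 4 WT libraries, in replicate 4, and 5 over the 4 Nlrp3-/- libraries (2, 3, 0 and 0). Every M-MDSC library was again above every G-MDSC library. From the summed counts, 179 against 1, the WT M-MDSC level was 108 times that of G-MDSCs with an exact 95% interval of 19.1 to 4276 that covers counting error only, and the Nlrp3-/- ratio, with 5 G-MDSC counts, was 14.1 (5.86 to 44.3). The fitted log2 fold changes, -6.15 (SE 0.92, adjusted p = 0.000133) and -3.85 (SE 0.83, adjusted p = 0.00140), depend for so few reads on the prior count of the fit.

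Prss57, a protease related to elastase that cuts after arginine, had the reverse order. WT G-MDSCs were at 32.1, 9.14, 11.1 and 9.73 CPM and Nlrp3-/- G-MDSCs at 22.6, 19.996, 11.4 and 10.8 CPM. In M-MDSCs it gave 9, 41, 11 and 8 counts in WT and 9, 7, 12 and 8 counts in Nlrp3-/- libraries, which is 1.03 to 5.77 CPM. No M-MDSC library reached the lowest G-MDSC library. The log2 fold change of G-MDSCs over M-MDSCs was 2.31 (SE 0.52, adjusted p = 0.00235) in WT and 3.41 (SE 0.45, adjusted p = 1.95e-05) in Nlrp3-/- mice. Fstl3, whose 3′ end overlaps Prss57 on the other strand, also rose in G-MDSCs, by log2 fold changes of 1.70 (SE 0.34, adjusted p = 0.00102) and 1.69 (SE 0.42, adjusted p = 0.00379). Its part in the Prss57 counts was not tested.

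Ms4a3 was at 2.23, 15.7, 3.75 and 2.40 CPM in WT and 1.28, 4.27, 2.72 and 3.21 CPM in Nlrp3-/- M-MDSCs. G-MDSCs were at 2.00, 5.08, 1.45 and 1.56 CPM in WT and 0.693, 2.72, 1.24 and 4.98 CPM in Nlrp3-/- libraries. The populations overlapped in both genotypes. The log2 fold change of G-MDSCs over M-MDSCs was -1.32 (SE 0.69, adjusted p = 0.122) in WT and -0.37 (SE 0.65, adjusted p = 0.657) in Nlrp3-/- mice, and without WT M-MDSC replicate 2 the WT value was -0.23.

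In each genotype, 4 of the 6 genes fell and 1 rose in G-MDSCs, and all 5 calls held as each of the 8 libraries was left out in turn. Over all genes tested, 27.1% were called lower and 26.3% higher in WT, and 27.4% lower and 23.7% higher in Nlrp3-/- mice. The share of all genes whose libraries did not overlap between the populations was not counted. A call required an adjusted p below 0.05 and more than a 1.5-fold difference. With 1 library left out, the WT value ran from -5.15 to -4.14 for Mpo, from -5.77 to -4.80 for Elane, from -5.88 to -4.36 for Prtn3, from -8.10 to -5.57 for Ctsg and from 1.69 to 2.82 for Prss57. The Nlrp3-/- value ran from -5.37 to -4.05 for Mpo, from -6.26 to -3.60 for Elane, from -5.50 to -5.04 for Prtn3, from -4.68 to -3.39 for Ctsg and from 3.23 to 3.75 for Prss57. The median log2 fold change of the 6 genes was -4.87 in WT and -3.96 in Nlrp3-/- mice, beside -0.05 and -0.12 over all genes tested. G-MDSC libraries held a few very abundant transcripts, and their TMM factors were 0.722 to 0.804 against 1.20 to 1.46 in M-MDSCs. With library size alone the median of all genes moved to -0.79 in WT and -0.83 in Nlrp3-/- mice, the calls in WT went from 2557 higher and 2636 lower to 1166 and 5061, those in Nlrp3-/- mice from 2383 and 2758 to 1146 and 5034, and Ms4a3 passed the test in WT (-2.04, adjusted p = 0.0166). The directions of the other 5 genes were the same under every scaling tried.

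**Figure D2:**
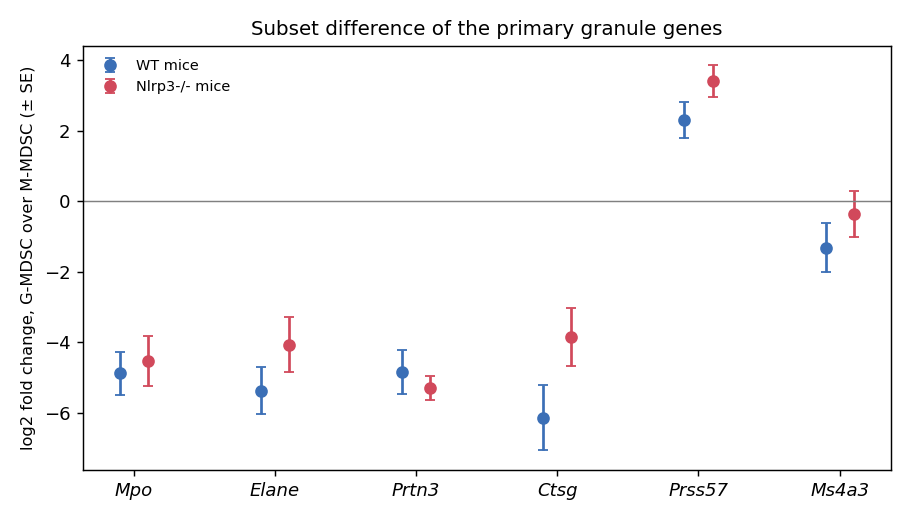
Log2 fold change of G-MDSCs over M-MDSCs with its SE for each primary granule gene, fitted separately in WT and Nlrp3-/- mice (edgeR, 4 against 4 libraries). Mpo, Elane, Prtn3 and Ctsg lie between -6.15 and -3.85, Prss57 at 2.31 and 3.41, and Ms4a3 at -1.32 and -0.37.

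By mean level, Mpo was highest in the M-MDSC groups (45.0 ± 38.1 CPM in WT and 27.9 ± 15.6 in Nlrp3-/- mice, SD, n = 4) and lowest in G-MDSCs (1.53 ± 0.77 and 1.31 ± 1.57). The order of the M-MDSC groups rested on WT replicate 2, since the other 3 WT libraries, at 25.3, 29.4 and 23.3 CPM, lay within the Nlrp3-/- range of 14.5 to 50.1 CPM. For Elane and Ctsg both G-MDSC groups were at or under 0.824 CPM on average. For these genes and Prtn3, neighbours in the order that shared a sorted population overlapped, and neighbours that did not share one were apart. Prss57 was highest in Nlrp3-/- G-MDSCs (16.2 ± 6.02 CPM) and WT G-MDSCs (15.5 ± 11.1), which overlapped, and lowest in Nlrp3-/- M-MDSCs (1.44 ± 0.71).

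The genotype comparison asked whether loss of Nlrp3 changed these transcripts within a sorted population. In M-MDSCs, 0 of the 6 genes passed the test, while 10.6% of all 9986 genes tested did. All 6 fitted values were negative, with a median log2 fold change of -0.85 beside 0.07 over all genes tested, of which 44.97% were negative. In the edgeR fit with TMM scaling, the filter on low counts and no further correction, none of the 6 had an unadjusted p under 0.05. Without the filter Elane had one of 0.0294 (adjusted p = 0.167). DESeq2 and the edgeR exact test called none either. WT and Nlrp3-/- libraries overlapped for every one of the 6 genes.

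The fitted log2 fold changes were -0.70 for Mpo (SE 0.49, adjusted p = 0.354), -0.86 for Elane (SE 0.42, adjusted p = 0.193) and -0.61 for Prtn3 (SE 0.36, adjusted p = 0.280). For Ctsg the value was -0.84 (SE 0.48, adjusted p = 0.257). Prss57 and Ms4a3 had the lowest values, -1.11 (SE 0.52, adjusted p = 0.171) and -1.12 (SE 0.62, adjusted p = 0.250), from 69 against 36 and 152 against 74 counts.

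All 6 values depended on 1 library, but to differing degrees. Without WT M-MDSC replicate 2 the log2 fold change became 0.10 for Mpo, -0.23 for Elane, -0.05 for Prtn3, -0.25 for Ctsg, -0.54 for Prss57 and 0.03 for Ms4a3, with adjusted p of 0.578 to 0.976 (edgeR, 3 against 4 libraries). The median of the 6 then was -0.14, against 0.09 over all genes. Leaving out any other library kept all 6 values negative. With all 8 libraries and correction for GC content and length the values were -1.25 for Mpo, -1.43 for Elane, -1.24 for Prtn3, -1.23 for Ctsg, -1.55 for Prss57 and -1.11 for Ms4a3, with adjusted p of 0.0798 to 0.324 and none called. The median over all genes with that correction was -0.13. The correction was not run without replicate 2.

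**Figure D3:**
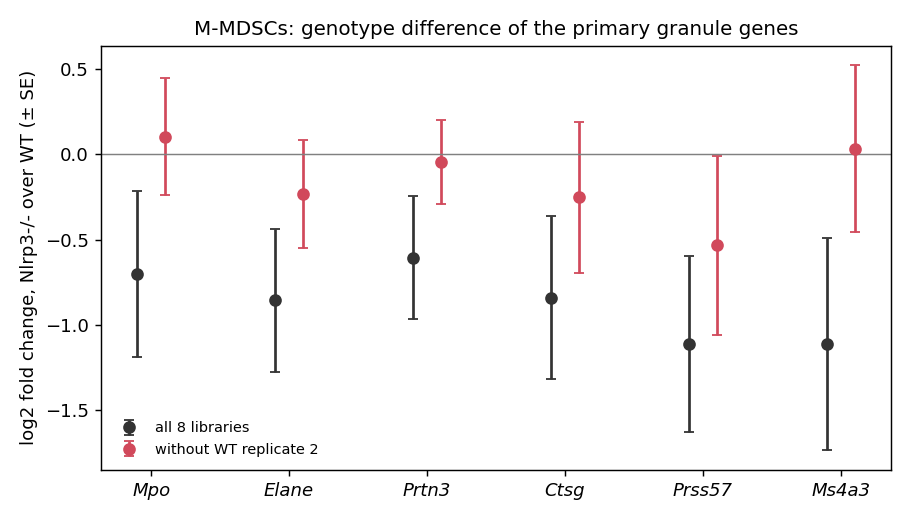
Log2 fold change of Nlrp3-/- over WT M-MDSCs with its SE for each primary granule gene, with all 8 libraries and without WT replicate 2. With all libraries the values lie between -1.12 and -0.61, and without that replicate between -0.54 and 0.10.

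WT M-MDSC replicate 2 was 4.04 times the median of the other 3 libraries of its group for Mpo, 2.90 times for Elane, 3.26 times for Prtn3, 3.11 times for Ctsg, 2.94 times for Prss57 and 6.57 times for Ms4a3. The summed CPM of the 6 genes was 311 in this library against 77.9, 120 and 88.1 in replicates 1, 3 and 4. G-MDSCs of the same mouse did not stand out for the 4 genes of the M-MDSC pattern, with 6 counts for Mpo, 3 for Elane, 2 for Prtn3 and 0 for Ctsg, but they had the most Ms4a3 of their group (15 counts).

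Other transcripts were high in the same library. All 15 proliferation genes had their highest WT M-MDSC value there, and their summed CPM was 1097 against 444 to 488 in the other 3, with Cdk1, the mitotic kinase, at 47.0 against 4.83 to 11.99 CPM. Of 9 neutrophil markers, 5 were highest there, led by the calprotectin subunits S100a8 (3723 CPM against 566 to 752) and S100a9 (2616 against 364 to 517), and the summed level was 7076 against 1449 to 1732 CPM. S100a8 was at 51641 to 68671 CPM in WT G-MDSCs. Of 10 secondary and tertiary granule genes 8 were highest in that library, with summed CPM of 3919 against 1409 to 1949.

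Erythroid markers (summed CPM 139 against 24.1 to 54.5, 6 of 10 genes highest there), plasma cell markers (569 against 249.2 to 382, 4 of 6 genes) and progenitor markers (51.9 against 20.1 to 30.8, 5 of 13 genes) were also highest in replicate 2. Of the progenitor sum of replicate 2, Flt3, which is also on the dendritic cell list, made up 33.5 CPM (4.83 to 17.8 in the others). The 4 globin genes of the erythroid list were at 0 in all 16 libraries, and whether the counting annotation gave these zeros was not tested. The defining progenitor marker Kit gave 9 counts in replicate 2 and 1 or 2 in the others. Monocyte markers were lowest there (8451 against 9267 to 10680 CPM), while summed promyelocyte markers were at 1.09 times and T and NK cell markers at 1.31 times the median of the other 3. Single genes of these lists were highest there too, 5 of 8 and 5 of 10, among them Fcnb, a ficolin (46.8 CPM against 12.3 to 16.6). The part of other cells or of depth in the level of the primary granule genes in this library was not tested. With 5933395 counts it was the deepest WT M-MDSC library.

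**Figure D4:**
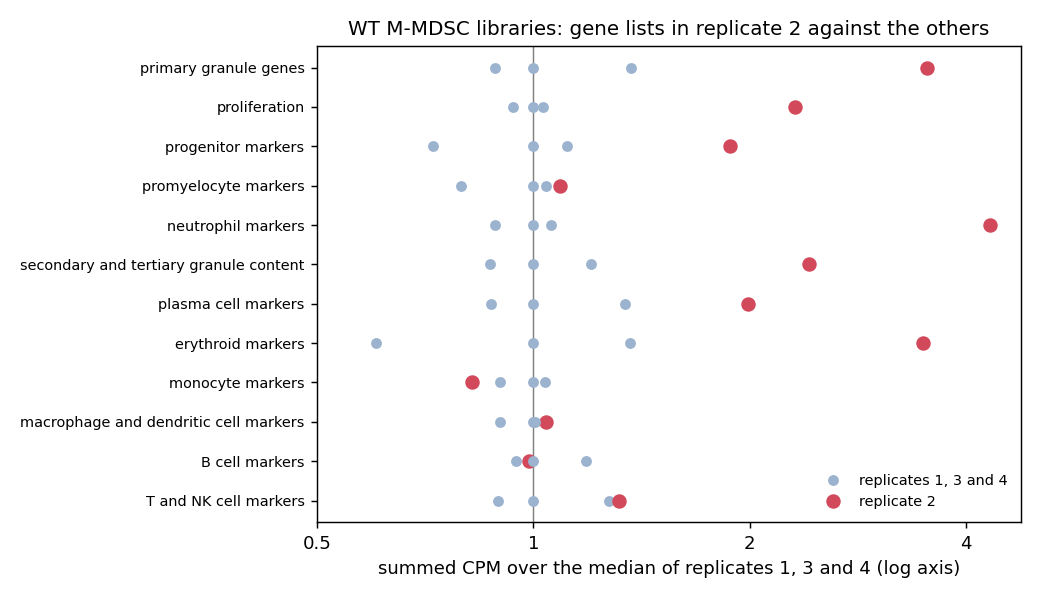
Summed CPM of 12 gene lists in the 4 WT M-MDSC libraries, each divided by the median of replicates 1, 3 and 4 (log axis). Replicate 2 is at 3.53 for the primary granule genes, 4.32 for neutrophil markers, 3.48 for erythroid markers and 2.32 for proliferation, and at 0.821 for monocyte markers.

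The shares of the 4 genes in their summed counts moved less between M-MDSC libraries than the amounts did. In WT M-MDSC replicate 2, which held 2060 of the counts of Mpo, Elane, Prtn3 and Ctsg, Mpo made up 35.2% of them (exact 95% interval 33.2 to 37.3, counting error only), Elane 16.8%, Prtn3 42.8% and Ctsg 5.15%. In replicate 1, with 398 counts, the shares were 34.2% (29.5 to 39.1), 16.1%, 45.7% and 4.02%. Over all 8 M-MDSC libraries Mpo ranged from 25.2% to 38.3%, Elane from 12.2% to 20.7%, Prtn3 from 42.8% to 57.0% and Ctsg from 3.21% to 6.69%. The ends of these ranges were apart beyond counting error for Mpo, with 38.3% (34.5 to 42.2) in Nlrp3-/- replicate 3 and 25.2% (21.2 to 29.4) in Nlrp3-/- replicate 4. The same held for Elane, with 20.7% (17.2 to 24.5) in Nlrp3-/- replicate 2 and 12.2% (9.36 to 15.6) in Nlrp3-/- replicate 4. It also held for Prtn3, with 57.0% (52.3 to 61.6) in Nlrp3-/- replicate 4 and 42.8% (40.7 to 45.0) in WT replicate 2. Each gene is compared here only with itself across libraries, since counts at transcript ends do not rank genes.

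**Figure D5:**
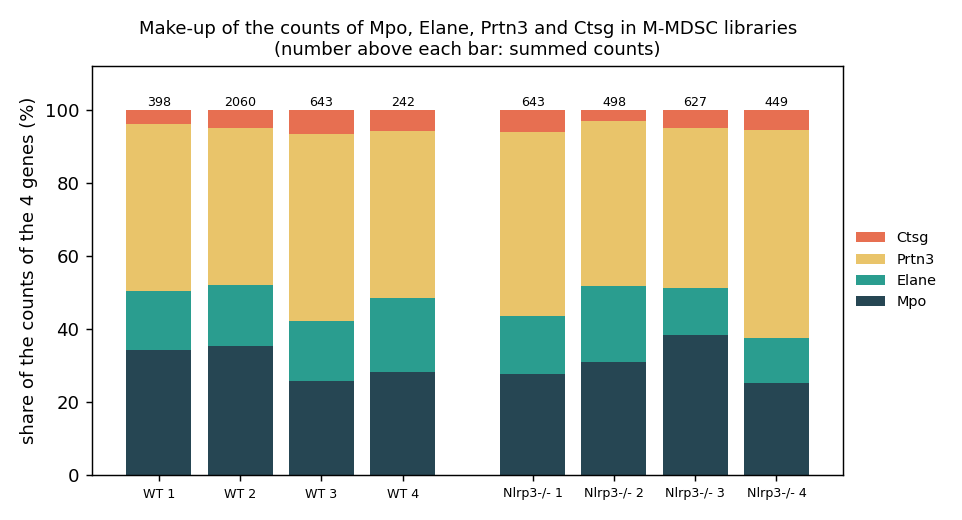
Share of the summed counts of Mpo, Elane, Prtn3 and Ctsg taken by each gene in the 8 M-MDSC libraries, with the summed counts above each bar. The bar of WT replicate 2 rests on 2060 counts and those of the other libraries on 242 to 643, and Mpo takes between 25.2% and 38.3% in each.

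In G-MDSCs the main genotype comparison was made for Prss57 alone, since the other 5 genes did not pass the filter on low counts in the G-MDSC libraries. The model of all 16 libraries tested all 6 there and called 0. In the main comparison the log2 fold change of Prss57 was -0.01 (SE 0.41, adjusted p = 0.990). Thus 0 of 1 gene passed the test there, while 16.4% of all genes tested did. Prss57 was highest in WT replicate 1 (32.1 CPM, against 9.14 to 11.1 in the others), and without that library its value was 0.59 (adjusted p = 0.266). With no filter on low counts the remaining values were -0.31 for Mpo (SE 1.05), 0.46 for Elane (SE 1.37), -1.05 for Prtn3 (SE 0.94), 1.42 for Ctsg (SE 1.75) and -0.15 for Ms4a3 (SE 0.77), with adjusted p of 0.496 to 0.922. With 1 to 39 counts per group and gene, no genotype difference was detected in G-MDSCs for these 5 genes. How large a difference this depth could show was not tested.

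Whether the genotype difference itself differed between the populations was tested as an interaction over all 16 libraries. Of the 6 genes 0 passed, and 0.028% of all genes tested did (3 of 10696). None had an unadjusted p under 0.05 in the edgeR fit with TMM scaling, the filter on low counts and no block, and DESeq2 also called none. Prss57 had the smallest unadjusted p (0.0948), with a difference of 1.21 (SE 0.69) on the log2 scale and an adjusted p of 0.992. For Ctsg the difference was 2.45 (SE 1.53) and for Mpo 0.45 (SE 1.11).

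The machinery around the granule proteins was followed through gene lists chosen for their function. Of the genes that activate or package granule proteases, 3 of 11 tested fell in Nlrp3-/- M-MDSCs and the same 3 of 9 tested fell in G-MDSCs, and none rose. They were Lyst, whose loss gives the giant granules of Chediak-Higashi syndrome (-1.52, SE 0.27, adjusted p = 0.00670 in M-MDSCs, and -1.76, SE 0.20, adjusted p = 6.49e-05 in G-MDSCs), Ap3b1, the adaptor subunit that sorts elastase to granules (-0.87, SE 0.14, adjusted p = 0.00443, and -0.95, SE 0.18, adjusted p = 0.00236), and Vps13b, mutated in the neutropenia of Cohen syndrome (-0.996, SE 0.17, adjusted p = 0.00477, and -1.67, SE 0.20, adjusted p = 0.000105). All 6 of these calls held as each library was left out in turn, WT M-MDSC replicate 2 included. Over the other scalings, filters, tests and models the adjusted p in M-MDSCs reached 0.0550 for Lyst and 0.0642 for Vps13b. Those calls thus did not hold in every setting. The list's median was -0.14 in M-MDSCs and -0.17 in G-MDSCs. Over all genes tested, 7.1% were called lower in Nlrp3-/- M-MDSCs and 11.7% in G-MDSCs.

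Ctsc, cathepsin C, which removes the inhibitory dipeptide of the granule serine proteases, followed the Mpo pattern between the populations. It was at 306 ± 55.8 CPM in WT and 321 ± 122 CPM in Nlrp3-/- M-MDSCs, against 18.8 ± 5.60 and 28.5 ± 3.15 CPM in G-MDSCs (SD, n = 4). It fell in G-MDSCs by log2 fold changes of -4.02 (SE 0.25, adjusted p = 1.19e-07) and -3.62 (SE 0.27, adjusted p = 8.02e-08), and its genotype values, 0.11 (adjusted p = 0.815) in M-MDSCs and 0.52 (adjusted p = 0.177) in G-MDSCs, did not pass. Srgn, serglycin, the proteoglycan core on which the proteases are packed, went the other way, with a rise in G-MDSCs of 3.17 (SE 0.42, adjusted p = 4.92e-05) in WT and 3.54 (SE 0.34, adjusted p = 1.01e-06) in Nlrp3-/- mice and genotype values of -0.16 (adjusted p = 0.803) and 0.20 (adjusted p = 0.714).

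Of the 11 genes of other primary granule content, lysosomal enzymes and lysozymes, 10 were tested in WT cells, where 7 fell and 1 rose in G-MDSCs, and 6 fell and 1 rose in Nlrp3-/- cells. By genotype Lyz1, a lysozyme, rose in M-MDSCs (2.90, SE 0.84, adjusted p = 0.0460), a call that ended without any 1 of the 4 WT libraries or without Nlrp3-/- replicate 4 (adjusted p of up to 0.141), and with correction for GC content and length (adjusted p = 0.0649). Hexa, a lysosomal hydrolase, rose in G-MDSCs (0.82, SE 0.16, adjusted p = 0.00337), and was not called after correction for GC content and length (0.26, adjusted p = 0.276). Secondary and tertiary granule genes, made later in maturation, had the order of Prss57: 9 of 10 rose and 1 fell in G-MDSCs in both genotypes, with medians of 3.86 and 4.23.

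Inhibitors of the granule proteases were also on the G-MDSC side. The 3 of 8 listed inhibitors that passed the filter rose there in both genotypes, namely Slpi, Serpinb1a and Serpinb6a, with Slpi, the secretory leukocyte protease inhibitor, at 4.10 (SE 0.28, adjusted p = 2.43e-07) and 4.21 (SE 0.19, adjusted p = 6.17e-10). In Nlrp3-/- G-MDSCs Serpinb6a rose over WT by 1.15 (SE 0.28, adjusted p = 0.0116) and Slpi by 0.60 (SE 0.19, adjusted p = 0.0460), the latter not called after correction for GC content and length (0.02, adjusted p = 0.962) and not without WT replicate 2 or 4 or Nlrp3-/- replicate 2, 3 or 4 (adjusted p of up to 0.121). In M-MDSCs 0 of these 3 passed the genotype test.

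Transcription factors that act on granule genes were called in numbers between the populations, with 7 higher and 4 lower of 14 tested in WT and 7 higher and 5 lower in Nlrp3-/- mice. Cebpa, which starts the granulocyte programme, was lower in G-MDSCs by -2.36 (SE 0.36, adjusted p = 0.000153) and -1.95 (SE 0.27, adjusted p = 3.83e-05), and Cebpe, which drives secondary granule genes, was higher by 3.17 (SE 0.46, adjusted p = 0.000106) and 2.52 (SE 0.33, adjusted p = 2.14e-05). Gfi1, a repressor needed for neutrophil maturation, rose by 1.69 (SE 0.58, adjusted p = 0.0264) and 1.62 (SE 0.58, adjusted p = 0.0298), and lost the call with library size alone (adjusted p of 0.150 and 0.193). It also lost the WT call without M-MDSC replicate 1, 3 or 4 or G-MDSC replicate 2 or 4, and the Nlrp3-/- call without M-MDSC replicate 2 or 3 or G-MDSC replicate 3 or 4 (adjusted p of up to 0.0744 and 0.0769). By genotype, Klf4 (-0.85, SE 0.17, adjusted p = 0.0105), Cux1 (-0.59, SE 0.13, adjusted p = 0.0175) and Runx1 (-0.69, SE 0.18, adjusted p = 0.0292) fell in Nlrp3-/- M-MDSCs, and Cux1 (-0.80, SE 0.16, adjusted p = 0.00324) and Runx1 (-0.89, SE 0.20, adjusted p = 0.00821) also in G-MDSCs. Over the other scalings, filters, tests and models the adjusted p of Runx1 in G-MDSCs reached 0.0640, so that call did not hold in every setting. In M-MDSCs the call of Runx1 ended without WT replicate 1, 2 or 4 or Nlrp3-/- replicate 3 or 4 (adjusted p of up to 0.0867; 0.0629 without WT replicate 2), and that of Cux1 without WT replicate 1 or 4 or Nlrp3-/- replicate 3 (adjusted p of up to 0.0625, or a change under 1.5-fold). Both calls in M-MDSCs also ended with correction for GC content and length (adjusted p of 0.0551 for Runx1 and 0.0558 for Cux1), and Cux1 was under 1.5-fold with library size alone (-0.49), with upper-quartile scaling and without the filter on low counts. Cebpe did not pass in either population (-0.25, adjusted p = 0.651, and -0.91, adjusted p = 0.146). In G-MDSCs it was called with correction for GC content and length (-1.67, adjusted p = 0.0197), without WT replicate 3 (-1.17, adjusted p = 0.0381) and without the filter on low counts.

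Markers of early myeloid stages were counted as well. Of 13 progenitor markers 4 were tested by genotype in M-MDSCs and 2 in G-MDSCs, and 0 were called in either. Their summed CPM in G-MDSCs was 8.32 to 16.2 in Nlrp3-/- and 17.9 to 31.7 in WT libraries, which did not overlap. Most of the 13 genes in that sum did not pass the filter on low counts there. In M-MDSCs the sums, 24.1 to 46.3 CPM in Nlrp3-/- and 20.1 to 51.9 in WT libraries, overlapped. Of 8 promyelocyte markers 0 of 7 were called in M-MDSCs. In G-MDSCs Nkg7, a granule membrane protein that T and NK cells share, rose (0.99, adjusted p = 0.0180) and Clec5a, a myeloid lectin, fell (-0.63, adjusted p = 0.0279). Neither was called without WT replicate 4 or Nlrp3-/- replicate 3 or 4, nor Clec5a without replicate 2 of either genotype (adjusted p of up to 0.0542 for Nkg7 and 0.0886 for Clec5a). Both calls also ended with correction for GC content and length (0.44, adjusted p = 0.301, and -0.48, adjusted p = 0.0736), and that of Clec5a with library size alone (adjusted p = 0.0753), with upper-quartile scaling and in the model of all 16 libraries. Of 15 proliferation genes Mki67 and Top2a fell in Nlrp3-/- M-MDSCs (-2.08, adjusted p = 0.00889, and -1.63, adjusted p = 0.0297), and without WT replicate 2 Mki67 alone was called (adjusted p = 0.0217, and 0.0673 for Top2a). The Top2a call also ended without Nlrp3-/- replicate 2 or 4 (adjusted p of up to 0.0965) and with correction for GC content and length (adjusted p = 0.0578). Over the other scalings, filters, tests and models the adjusted p of Mki67 in M-MDSCs reached 0.0531, so its call did not hold in every setting either. Both also fell in G-MDSCs (-2.74, adjusted p = 0.00230, and -1.99, adjusted p = 0.00187).

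Some marker lists of other cells also differed with genotype. Macrophage and dendritic cell markers had 5 of 9 tested genes higher in Nlrp3-/- M-MDSCs and 6 of 8 in G-MDSCs, none lower, and their summed CPM was 265 to 401 in Nlrp3-/- against 159 to 184 in WT M-MDSCs and 463 to 649 against 169 to 286 in G-MDSCs. Of the list's 13 genes none was at 0 in all 16 libraries. Summed T and NK cell markers were at 186 to 357 CPM in Nlrp3-/- against 114 to 168 in WT M-MDSCs and at 219 to 292 against 138 to 204 in G-MDSCs. Of these genes 1 of 10 tested was called in M-MDSCs (Gzma) and 2 of 9 in G-MDSCs (Gzma and Nkg7), all higher. Summed eosinophil markers were at 61.7 to 66.6 against 30.7 to 56.4 CPM in G-MDSCs, and overlapped in M-MDSCs. Of the eosinophil genes 0 of 4 tested were called in G-MDSCs and 1 of 3 in M-MDSCs. Sums of B cell, basophil and mast cell, plasma cell, erythroid, and megakaryocyte and platelet markers overlapped between genotypes in both populations. The part of these cells in the values of the primary granule genes was not tested. Monocyte markers had 0 of 10 called by genotype in M-MDSCs. Neutrophil markers had 3 of 8 tested genes higher in Nlrp3-/- M-MDSCs, and 1 without WT replicate 2.

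Relatives of the 6 genes were followed as well. Epx and Lpo, the peroxidases of eosinophils and of secretions, gave at most 5 and 1 counts in any library, and neither passed the filter in any comparison. Lpo lies 2015 bases from Mpo. Of the 9 related serine proteases, Gzma, granzyme A of T and NK cells, was called by genotype in both populations (1.24, adjusted p = 0.0251, and 1.29, adjusted p = 0.00423). Cfd, complement factor D, lies 2638 bases beyond Elane and had 0 counts in all 16 libraries; whether the counting annotation gave this was not tested. Of 8 Ms4a relatives tested, which include B cell, monocyte and macrophage genes, 6 fell and 1 rose in G-MDSCs in each genotype.

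Genes next to the 6 on the chromosome were taken as 3 on each side, 29 in all after repeats and members were removed. In each genotype 9 of them passed the filter in the comparison of populations, and 4 rose and 3 fell in G-MDSCs, the same 7 genes in both. Around the chromosome 10 cluster, Palm and Fstl3 beside Prss57 rose, and so did R3hdm4, which lies 21837 bases from Elane. Med16, which lies 6493 bases from Elane, fell (-1.02, adjusted p = 0.00372, in WT). Ptbp1, which lies 9705 bases from Prtn3, also fell (-1.11, adjusted p = 0.000206, in WT). By genotype 0 of 9 tested neighbours were called in M-MDSCs and 2 of 8 in G-MDSCs, R3hdm4 (0.63, adjusted p = 0.0279) and Rnf126 (0.77, adjusted p = 0.0328), both higher in Nlrp3-/- cells.

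The genes whose pattern over the 16 libraries was most like the mean of the 6, by the mean absolute difference of centred log2 CPM, were Jchain (0.35), Tmem147 (0.39), Clec2i (0.42), Rgs10 (0.42) and Tcf4 (0.42). Of the 6 themselves, Ctsg was nearest to that mean (0.57) and Prss57 farthest (2.55). Mpo and Elane were each other's nearest gene (0.46). Prtn3 was nearest to Cln8 (0.51), Ctsg to Elmo2 (0.50), Prss57 to Mgst2 (0.44) and Ms4a3 to Tnf (0.42), none of them a member. All values come from the same 16 libraries of both sorted populations.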

How the data were processed

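RNA of sorted splenic MDSCs was sequenced as 3′ end libraries (QuantSeq), 1 library per mouse and population. Per the submitters' processing notes the authors aligned reads to mm10 with HISAT2 2.1.0, counted them per gene with HTSeq and used edgeR 3.14.0. The deposited values were whole-number counts per gene symbol, unnormalized, 1 table per library. Counting by strand is from the study's methods.

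Here counts were filtered (filterByExpr), scaled (TMM) and tested per gene with the quasi-likelihood test of edgeR 4.0.16 (limma 3.58.1, R 4.3.3) for genotype within each population, population within each genotype, and their interaction. A call needed a Benjamini-Hochberg FDR under 0.05 over all genes tested and, except for the interaction, a fold change above 1.5, the study's thresholds. DESeq2 1.42.0 was an alternative. CPM used TMM library sizes over all 16 libraries, and log2 CPM a prior count of 2. The fit was tested on simulated data. Intervals and floors cover counting error only. Libraries of a group differed by more than sampling noise, and each came from its own mouse.

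The members and lists were chosen with earlier results of these data known. Named were all 6 members, called genes of each list (at most 6 by order of p), Cebpe, Gfi1, Ctsc, Srgn and Cfd, the 5 genes most like the members' mean, and neighbours. Cdk1, S100a8, S100a9, Kit, Serpinb1a, the population values of Cebpa and Slpi, single neighbours and the nearest gene of each member were named after their values were seen, and list counts without WT M-MDSC replicate 2 were added after seeing the data. Both populations of a number came from the same mouse per the labels (mean correlation of their deviations from the group means 0.24 in WT and 0.19 in Nlrp3-/- mice), and the mouse was a block in an alternative. Gene positions are from GENCODE for mm10. Some listed genes are not reported here.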

Additional observations from a re-analysis of the deposited data

Results flagged for a closer look

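In 7 of 28 groups of 4 values (6 genes and their sum in 4 groups), the highest library stood farther from the next than Dixon's 95% limit allows. Chance alone flags about 1 in 20 independent groups, but these are not independent, since the sum is made of the 6 genes and several values share a library. Mpo in WT M-MDSC replicate 2 was 102 CPM and Ms4a3 in the same library 15.7 CPM. Prss57 was 2.51 CPM in Nlrp3-/- M-MDSC replicate 3 and 32.1 CPM in WT G-MDSC replicate 1, and the summed level of the 6 genes in the latter library was 43.1 CPM. Ms4a3 was 5.08 CPM in WT G-MDSC replicate 2, which came from the same mouse as M-MDSC replicate 2. Ctsg was 0.389 CPM in WT G-MDSC replicate 4, which is 1 count beside 0 in the other 3 libraries, a pattern that passes the limit by construction.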

How the results depend on the processing

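The number of primary granule genes called (0 by genotype and for the interaction, 5 between populations) was the same under all scalings, filters, tests and models that left a member to test, except that library size alone added Ms4a3 in WT. A minimum of 10 counts in every sample left no member for the comparison of populations or the interaction. Leaving out each library gave 0 to 0 calls by genotype and for the interaction, and 5 to 5 between populations. Median summed CPM of the members in Nlrp3-/- M-MDSCs moved from 83.8 to 116 with the deposited total. With a replicate block (replicate number by genotype, mouse by population, mouse for the interaction) the members called were 0, 0, 5, 5 and 0. The paired fit by number moved calls over all genes from 1060 to 425 in M-MDSCs and from 1522 to 985 in G-MDSCs, and ended those of Cux1, Runx1, Lyz1 and Top2a in M-MDSCs and Slpi, Clec5a and Nkg7 in G-MDSCs. WT and Nlrp3-/- samples of one number are different mice: the mean correlation of their deviations was -0.16 in M-MDSCs and -0.15 in G-MDSCs, and 0 samples of either correlated best with their own number. Over the alternatives, all-gene calls ranged from 329 to 1783 in M-MDSCs and from 781 to 1907 in G-MDSCs, and from 2 to 8 against 3 for the interaction. With library size alone calls were 684 higher and 569 lower in M-MDSCs (351 and 709 with TMM) and 793 and 854 in G-MDSCs (436 and 1086), and with correction for GC content and length 118 and 670, and 111 and 1133.

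Signs that turned were all of uncalled values. Prss57 in G-MDSCs by genotype, -0.01, became 0.00405 with DESeq2 size factors, 0.00423 with DESeq2, 0.12 with library size, 0.0369 with upper-quartile scaling, 0.0625 in the model of all 16 libraries and 0.0948 with the replicate block, and ran from -0.21 to 0.59 as each library was left out. By genotype in M-MDSCs, leaving out 1 library gave -1.12 to 0.10 for Mpo, -1.41 to 0.0336 for Ms4a3, -0.59 to 0.0685 for Srgn and -0.19 to 0.24 for Ctsc, and in G-MDSCs -0.0213 to 0.53 for Srgn. For the interaction it gave -0.51 to 0.90 for Mpo, -0.27 to 1.61 for Ms4a3, -1.05 to 0.70 for Prtn3 and -0.79 to 1.86 for Elane. Depth limits G-MDSC values of Mpo, Elane, Prtn3 and Ctsg, which rest on 0 to 17 counts per library. The cause of these changes was not tested.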
